A study of Mus musculus with 54 samples.

Results

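The insulin-like growth factor (IGF) axis was followed as 10 mouse genes chosen by their symbols. They are the ligands Igf1 and Igf2, the imprinted RNA H19 beside Igf2, the receptors Igf1r and Igf2r, the binding proteins Igfbp2, Igfbp4, and Igfbp5, and the receptor adaptors Irs1 and Irs2. Their NCBI gene numbers were matched in 27 deposited tables, 15 that set a line against wildtype at a given day and 12 that set 1 day of a line against the next. In total, 9 of the 10 members were analysed, among 19653 genes listed and 14727 genes tested, and H19 was not analysed here.

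RNA was sequenced from H2K myogenic progenitors, mouse muscle precursors whose T antigen is induced by γ-interferon so that they divide in culture and form myotubes in low-serum medium. The 6 lines were wildtype, EMD-/y, and EMD-/y progenitors that received a lentivirus for wildtype emerin (+EMD), S54F, Δ95–99, or Q133H emerin. Emerin is an inner nuclear membrane protein, and these changes to it cause Emery–Dreifuss muscular dystrophy. RNA was taken 0, 24, and 48 h after the switch to differentiation medium (days 0, 1, and 2), with 3 libraries for each of the 18 groups of line and day and 54 libraries in all. The EMD-/y line and the 4 transduced lines share the EMD-/y parent, and each line is a selected population of cultured cells. The transduced lines were selected in puromycin, which the labels also give for the mutant lines during differentiation, and the methods give a denser plating for mutant lines than for wildtype and EMD-/y. Against wildtype or EMD-/y, transduction, selection, and plating cannot be told apart from the emerin that a transduced line carries. Transduction is shared between the mutant lines and +EMD, but the methods give a higher puromycin dose for each mutant line than for +EMD. That dose, and any difference in plating, cannot be told apart from the emerin there.

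IGF-1 and IGF-2 bind the IGF-1 receptor, a tyrosine kinase that passes the signal through the adaptors IRS-1 and IRS-2 to PI3-kinase, Akt, and mTOR. The IGF-2 receptor has no kinase and carries IGF-2 to lysosomes, while the binding proteins hold the ligands outside the cell and can limit or prolong their action. In muscle, IGFs are known to support both the growth of myoblasts and their differentiation, and IGF-2 made by differentiating myoblasts acts back on them.

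The libraries held between 17086515 and 20215349 reads. Levels are given as RPM, the reads of a gene for every 1000000 reads of a library, after scaling of the libraries. In 17 of 18 groups, a pair of libraries lay close together and the third lay over 1.5 times farther off in squared difference. Over all groups, the median squared difference of the third library from the pair was 3.48 to 23.0 times what counting reads gives. Within the close pair it was 1.56 to 3.58 times. The methods give 3 technical replicates for each biological replicate, and which library is which could not be told here, so p-values measure the spread between these libraries, which may be technical. The widest gap was on day 2 in Q133H, where 1 library held 6076 RPM of Igf2 against 2035 and 2446, and 2362 RPM of the myogenic regulator Myog against 497 and 610. Mouse Emd, the targeted gene, lay between 61.5 and 110 RPM in the 9 wildtype libraries and at 0 to 3 reads in each of the other 45 libraries, the transduced lines included. By western blot of proliferating cells, the paper reports emerin protein in the transduced lines, with most in Q133H. Mouse Emd reads are therefore no measure of the emerin in those lines. The 15 myogenic markers summed to between 1917 and 62440 RPM in a group, with none at 0 in all 3 libraries of a group. The summed levels were 17.1 to 263 for fibroblast, 1.21 to 16.4 for immune, 0.129 to 5.75 for adipocyte, 0.866 to 2.75 for endothelial, and 0.331 to 1.40 for glial markers. The markers within a list differed. The group means of Adipoq, Ptprc, Adgre1, and Lum reached at most 0.052, 0.130, 0.042, and 0.037 RPM. Those of Ly6a (fibroblast list), Itgam and Cd68 (immune list), and Pparg (adipocyte list) reached 259, 14.9, 6.1, and 5.73 RPM.

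A member was called when its adjusted p, from limma with Benjamini-Hochberg adjustment over all genes tested, was under 0.05 and the difference was at least 2-fold, which is 1 on the log2 scale. Differences are log2 values with their standard error (SE), and each group has n = 3 libraries. Against wildtype, 44 of 135 member comparisons were called, 36 of them higher in the line. This is 32.6%, where an average of 15.6% of all genes tested were called. Between days, 39 of 108 were called (36.1%, against 17.1% of all genes). Counts for all genes differed several-fold between comparisons, so each comparison is given with its own.

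On day 0, 6 of 9 members were called in +EMD (16.3% of all genes), 1 in Q133H (14.2%), 2 in Δ95–99 (11.6%), 1 in S54F (11.5%), and 3 in EMD-/y (7.84%). On day 1, +EMD had 3 calls (19.2%), Q133H 5 (24.2%), Δ95–99 3 (21%), S54F 2 (11.8%), and EMD-/y 1 (6.74%). On day 2, +EMD had 4 (18%), Q133H 2 (32.8%), Δ95–99 2 (22%), S54F 5 (10.1%), and EMD-/y 4 (6.74%). The share of members called was below that of all genes in S54F and Q133H on day 0 and in Q133H on day 2. Between days 0 and 1, wildtype had 7 members that changed (22.6% of all genes), +EMD 4 (16.8%), Q133H 3 (11.1%), Δ95–99 2 (13.7%), S54F 3 (16.3%), and EMD-/y 6 (21.8%). Between days 1 and 2, wildtype had 2 (19.4%), +EMD 2 (19.8%), Q133H 4 (10.4%), Δ95–99 4 (14.4%), S54F 1 (19.6%), and EMD-/y 1 (18.8%). The grid of differences from wildtype shows which members make up these counts.

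**Figure D1:**
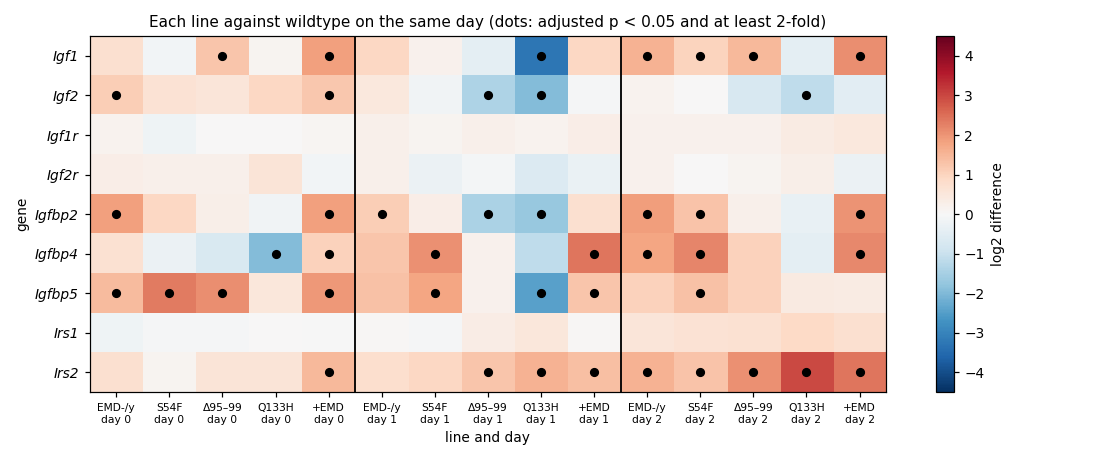
Log2 difference of each line from wildtype on the same day (columns) for the 9 members (rows), coloured from blue (lower than wildtype) to red (higher), with a dot where the adjusted p was under 0.05 and the difference at least 2-fold. Irs2 carries a dot in all 5 lines on day 2, the Igf1r, Igf2r, and Irs1 rows carry none, and Q133H on day 1 has 4 blue cells with dots.

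Igf2, the ligand that differentiating myoblasts make, exceeded every other member per kilobase of transcript in every group, with group means of 182 to 2100 RPM per kilobase. The wildtype libraries held 651, 657, and 1001 RPM of Igf2 on day 0. They held 2336, 2480, and 2887 on day 1 and 6774, 6867, and 7043 on day 2. The days did not overlap, and Igf2 rose by 1.76 (SE 0.26, adjusted p = 2.1e-07) and then by 1.43 (SE 0.25, adjusted p = 8.34e-06). In bulk RNA, a change in the share of cells that make a transcript and a change in its amount per cell cannot be told apart. The annotation places Igf2 at chr7:142650768-142666816 on the minus strand of GRCm38.p6, where Igf2os (chr7:142659680-142670356) overlaps it. Whether the counting used strand is not given in the sources used here, so reads of this pair cannot be told apart.

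Between day 1 and day 2, Igf2 rose in all 6 lines, by 1.01 in +EMD to 2.25 in Q133H. Over the 6 lines, the mean change was 1.57 (SD 0.53, n = 6 lines, adjusted p = 0.00119, limma). All lines but wildtype share the EMD-/y parent, so the 6 lines are not independent, here and in the other tests over lines. The smallest of these changes, that of +EMD, fell to between 0.95 and 0.98 without any of 3 of its libraries (2254 or 2288 on day 1, 5167 on day 2) and was then under 2-fold. Q133H rose from 526, 573, and 935 to 2035, 2446, and 6076 RPM, and by 1.77 (adjusted p = 1.13e-07) without the library that stood apart.

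The change from day 0 to day 1 differed among lines. EMD-/y rose by 1.16 (SE 0.25, adjusted p = 0.000169). S54F differed by 0.95 (adjusted p = 0.0019) and +EMD by 0.48 (adjusted p = 0.11), neither past both thresholds. Δ95–99 held 973, 1139, and 1182 RPM on day 0 and 753, 839, and 1499 on day 1, a change of -0.16 (adjusted p = 0.65). Q133H held 1104, 1185, and 2238 on day 0, all above its day 1 libraries, and Igf2 fell by 1.12 (SE 0.26, adjusted p = 0.000481) in that line. That fall was under 2-fold without the library at 2238 (-0.80) or without the library at 526 (-0.97).

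Igf2 was lower than wildtype on day 1 in Δ95–99, by -1.38 (SE 0.26, adjusted p = 1.69e-05), and in Q133H, by -1.96 (SE 0.26, adjusted p = 2.43e-08). The highest library of either line, at 1499, lay under the lowest of wildtype, at 2336. On the same day, 11 of 15 myogenic markers were lower than wildtype in Δ95–99 and 14 of 15 in Q133H, with medians of -1.97 and -4.41, and their sum was 3784 and 1917 RPM against 17030 in wildtype. Their part in the Igf2 difference was not tested. EMD-/y (0.49), S54F (-0.15), and +EMD (-0.06) were not called on day 1. On day 0, Igf2 was higher than wildtype in +EMD, by 1.22 (SE 0.26, adjusted p = 0.000124), with libraries at 1693, 1713, and 1876. It was also higher in EMD-/y (1426, 1450, and 2009), by 1.09, a difference under 2-fold without the library at 2009 (0.93) or without a wildtype library at 651 or 657 (0.99 for each), with adjusted p = 0.075 where the close libraries were summed. On day 2, Q133H was lower than wildtype by -1.15 (adjusted p = 0.000136). The difference was -1.63 (adjusted p = 6e-08) without the library that stood apart, and -0.84 or -0.97 without either of the other two.

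**Figure D2:**
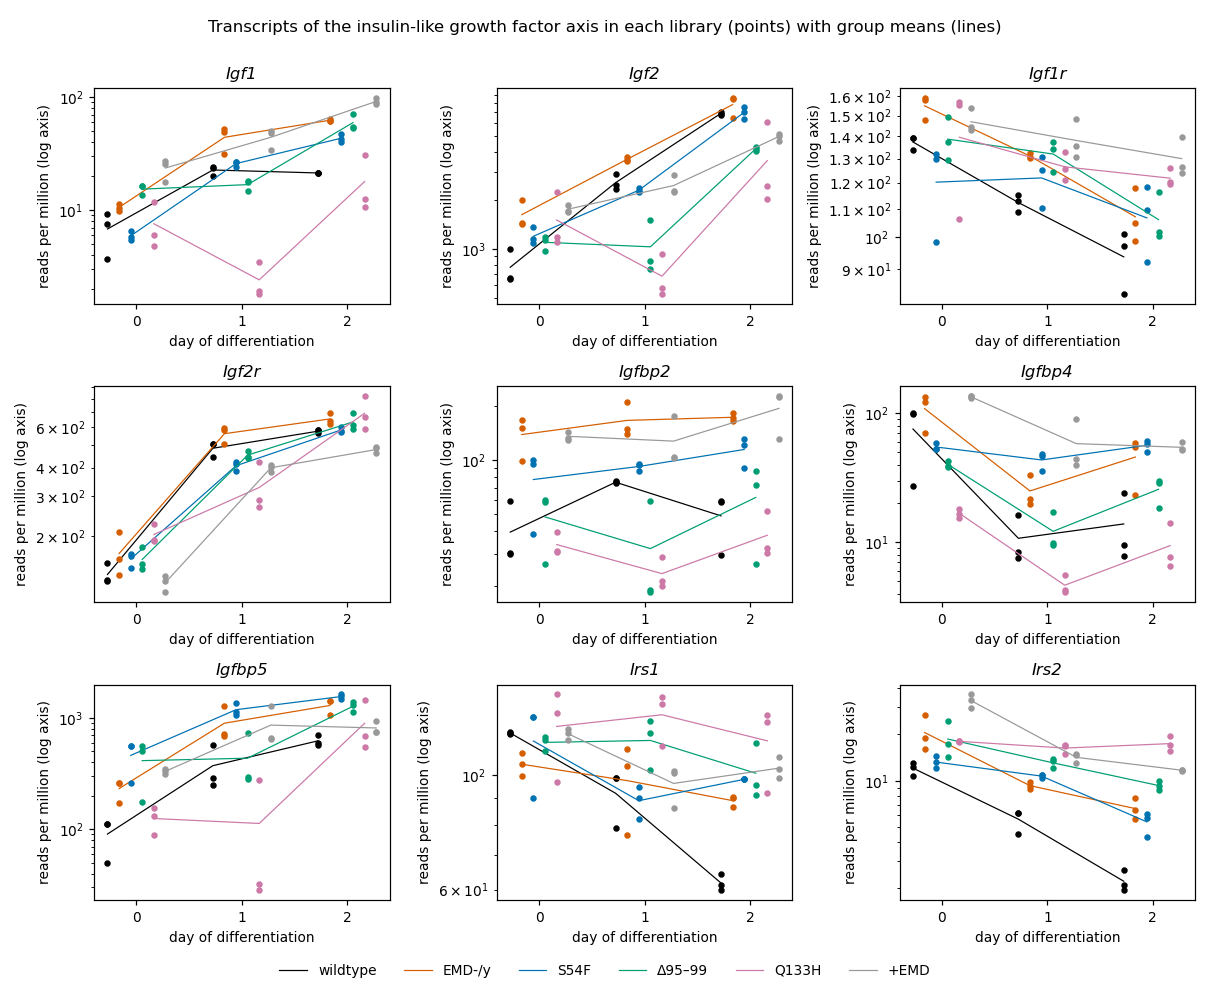
RPM (log axis) of each of the 9 members on days 0, 1, and 2, with a point for each library, a line through the group means, and a colour for each of the 6 lines (n = 3 libraries a group). Igf2 rises to day 2 in every line after a day 1 dip in Q133H, and wildtype (black) has the lowest Irs2 on day 2, between 1.94 and 2.63.

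Igf1, the other ligand, was much less abundant, at group means of 0.341 to 12.9 RPM per kilobase, and differed 37.8-fold between the lowest and the highest group mean. The wildtype libraries held 3.69, 7.53, and 9.30 RPM on day 0. On day 1 they held 20.3, 23.7, and 24.3, all above day 0, and Igf1 rose by 1.81 (SE 0.32, adjusted p = 6.29e-06). On day 2 they held 21.3, 21.4, and 21.6, a change of -0.08 (adjusted p = 0.80). From day 0 to day 1, Igf1 rose in S54F (2.12) and EMD-/y (2.02) as well. The change over this interval was 0.13 in Δ95–99 (adjusted p = 0.699) and 0.90 in +EMD (adjusted p = 0.00057, under 2-fold). In the next interval, to day 2, Igf1 rose in Δ95–99, +EMD, and Q133H, by 1.81, 1.07, and 2.76, the +EMD rise being under 2-fold (0.90) without the day 1 library at 34.2. Over lines, the mean day 1 to day 2 change was 1.13 (SD 1.06, n = 6 lines, adjusted p = 0.0407).

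On day 2, Igf1 was higher than wildtype in 4 of the 5 lines. The libraries of +EMD held 87.1, 90.2, and 98.1 RPM and those of EMD-/y 61.4, 62.1, and 64.3. Those of Δ95–99 held 53.7, 54.7, and 70.5, and those of S54F 40.4, 43.1, and 46.9. All 12 lay above the highest wildtype library. The differences were 1.55 (SE 0.22, adjusted p = 1.24e-06) in EMD-/y, 1.47 (SE 0.22, adjusted p = 5.31e-07) in Δ95–99, and 2.10 (SE 0.22, adjusted p = 2.49e-10) in +EMD. In S54F, the difference of 1.02 (adjusted p = 0.000705) was under 2-fold without the library at 46.9 (0.96) and with total reads as the scaling (0.97). Q133H held 10.8, 12.5, and 30.6, a range that spans wildtype (-0.42, adjusted p = 0.14), and differed by -0.88 (adjusted p = 0.00255) without the library at 30.6.

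On day 1, Igf1 in Q133H stood at 1.82, 1.94, and 3.52 RPM, from 38 reads upward, and was lower than wildtype by -3.27 (SE 0.44, adjusted p = 4.19e-08). Over the same interval in which wildtype, EMD-/y, and S54F rose, Q133H fell by 1.57 (SE 0.48, adjusted p = 0.00728), from 4.84, 6.10, and 11.9 RPM. That fall was not called without the day 0 library at 11.9 (-1.21, adjusted p = 0.0588). On day 0, Igf1 was higher than wildtype in +EMD (17.8, 25.8, and 27.4), by 1.86 (SE 0.32, adjusted p = 6.04e-06). In Δ95–99 on day 0 it was higher by 1.25, and by 0.87 (adjusted p = 0.0395) without the wildtype library at 3.69. The Q133H value on day 1 went with the low myogenic markers given above, whose part was not tested.

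Igf1r, the kinase receptor, changed least. It was called in 0 of 49 comparisons, by limma at the thresholds above, with differences between -0.32 and 0.48, while 12 passed an adjusted p of 0.05 whatever their size and 15 an unadjusted one. Its libraries ranged from 82.8 to 159 RPM, and the highest group mean was 1.65 times the lowest. The highest of the differences from wildtype was that of +EMD on day 2 (0.48, adjusted p = 0.000299), where the libraries held 124, 126, and 140 against 82.8, 97.1, and 101 in wildtype and did not overlap. This difference passed the test of p but was under 2-fold.

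Igf2r, the receptor that clears IGF-2, rose from day 0 to day 1 in 5 of 6 lines. In wildtype the libraries went from 127, 128, and 152 to 445, 506, and 508 RPM, a rise of 1.84 (SE 0.13, adjusted p = 3.46e-15). The rises were 1.77 in EMD-/y, 1.68 in +EMD, 1.53 in Δ95–99, and 1.36 in S54F, and these 5 rises were called without each library in turn and with the close libraries summed. Q133H went from 191, 193, and 226 to 269, 289, and 424, a change of 0.66 (SE 0.12, adjusted p = 4.37e-05) that was under 2-fold. The difference between the Q133H change and the wildtype change was -1.18 (SE 0.18, adjusted p = 1.76e-06). In the next interval, only Q133H passed both thresholds (1.10, adjusted p = 2.9e-09), with 0.97 without the library that stood apart and 0.97 without the day 1 library at 269. Over the 6 lines, the mean change to day 1 was 1.48 (SD 0.41, n = 6 lines, adjusted p = 0.000761), with all 6 above 0. Against wildtype on the same day, Igf2r was called in 0 of 15 comparisons by limma, the differences lying between -0.60 and 0.58, with 3 past an adjusted p of 0.05 and 6 past an unadjusted one.

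The promoter of Igf2r is shown because it held more E-boxes than those of the other members. An E-box is the motif CANNTG, the same on both strands, and MyoD-type factors bind some of its forms. CACGTG and CAGCTG are forms of it, counted within it, and which factors bind each form was not examined. The stretch is the 250 bases before the start of Igf2r in RefSeq (chr17:12769707-12769956, minus strand, GRCm38.p6), 5′ to 3′, with E-boxes in capitals.
Igf2r: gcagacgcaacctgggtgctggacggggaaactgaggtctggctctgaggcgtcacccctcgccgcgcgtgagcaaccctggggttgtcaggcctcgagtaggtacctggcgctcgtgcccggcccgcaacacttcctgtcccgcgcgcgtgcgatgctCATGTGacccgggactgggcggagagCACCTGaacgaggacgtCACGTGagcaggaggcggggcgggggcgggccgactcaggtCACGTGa
It holds 4 E-boxes, 2 of them CACGTG, whose first bases lie at -91, -65, -48, and -7 from the start. Of 27025 promoters of the same length, 3.86% held at least 4 E-boxes and 0.448% at least 2 CACGTG. A match describes the letters and is no evidence of binding.

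The binding proteins differed more among lines than the receptors did. Igfbp5, which is abundant in differentiating muscle and binds both ligands, rose from day 0 to day 1 in wildtype from 50.1, 111, and 111 to 250, 291, and 578 RPM, by 2.03 (SE 0.51, adjusted p = 0.000748). It rose in EMD-/y as well (1.92, SE 0.49, adjusted p = 0.000955). Rises in S54F (1.44) and +EMD (1.30) were lost with the close libraries summed (adjusted p = 0.0739 and 0.118). Between days 1 and 2, Δ95–99 rose by 1.69 (adjusted p = 0.00374, and 0.113 with the close libraries summed). The mean change over lines from day 0 to day 1 was 1.12 (SD 0.93, n = 6 lines, adjusted p = 0.0314).

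On day 0, Igfbp5 was higher than wildtype in S54F (263, 555, and 566 RPM, 2.35, SE 0.51, adjusted p = 0.000344), Δ95–99 (175, 503, and 563, 2.11, adjusted p = 0.0665 with the close libraries summed), and +EMD (316, 335, and 346, 1.96). EMD-/y was higher by 1.42, a call lost without any of 5 of the 6 libraries (adjusted p between 0.0572 and 0.177). On day 1, S54F stood at 1057, 1132, and 1371, above the wildtype libraries, and Igfbp5 was higher there by 1.76 (SE 0.49, adjusted p = 0.00377, and 0.11 with the close libraries summed). +EMD was higher by 1.24 on day 1, a call lost without any of 3 libraries (adjusted p between 0.0915 and 0.152). In Q133H on day 1, 2 libraries held 28.3 and 32.4 RPM and the third 277, which overlaps wildtype. The difference was -2.45 (SE 0.51, adjusted p = 8.85e-05). Igfbp5 then rose in Q133H by 3.68 (SE 0.51, adjusted p = 2.23e-07) to 554, 686, and 1450 on day 2, where it did not differ from wildtype by the test (0.40, adjusted p = 0.475). That rise was 3.27 (adjusted p = 9.95e-06) without the library that stood apart. On day 2, S54F was higher than wildtype by 1.33 (adjusted p = 0.0348), a call lost without any of the 6 libraries (adjusted p between 0.0549 and 0.0907).

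Igfbp2, a circulating binding protein that myoblasts also make, was higher than wildtype in EMD-/y on all 3 days. On day 2, EMD-/y held 164, 170, and 183 RPM against 29.5, 58.2, and 58.8 in wildtype, a difference of 1.89 (SE 0.38, adjusted p = 0.000287). On day 0, EMD-/y held 98.2, 150, and 167 against 30.0, 30.2, and 58.8 (1.85, SE 0.38, adjusted p = 0.000358, and 0.0691 with the close libraries summed). The day 1 difference (1.12, adjusted p = 0.0269) was lost without any of 4 libraries (adjusted p between 0.0636 and 0.114). Within wildtype, Igfbp2 rose by 1.00 (adjusted p = 0.0258) from day 0 to day 1, a call lost without any of 4 libraries (adjusted p between 0.0508 and 0.101). +EMD was higher on day 0 (1.85) and on day 2 (2.01), and S54F on day 2 (1.27), a call lost without the wildtype library at 29.5 (0.95, adjusted p = 0.0946). Lower values were called on day 1, in Δ95–99 (-1.44, adjusted p = 0.00246, and 0.0747 with the close libraries summed) and in Q133H (-1.71, SE 0.41, adjusted p = 0.000518), where the libraries held 19.8, 21.2, and 28.9 against 74.0, 75.4, and 75.8 in wildtype.

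Igfbp4, a binding protein cleaved by the protease PAPP-A, was the member that fell in most lines after day 0. In wildtype, the libraries held 27.3, 98.7, and 100.0 RPM on day 0 and 7.60, 8.39, and 16.2 on day 1, and Igfbp4 fell by 2.66 (SE 0.46, adjusted p = 4.38e-06). It fell in EMD-/y (-2.10), Δ95–99 (-1.76), Q133H (-1.85), and +EMD (-1.31), those of Q133H and +EMD being lost with the close libraries summed (adjusted p = 0.0972 and 0.0534). S54F held 52.7, 52.8, and 58.5 on day 0 and 35.4, 46.2, and 48.6 on day 1, a change of -0.34 (adjusted p = 0.415), which differed from the wildtype change by 2.32 (SE 0.57, adjusted p = 0.00391, and 0.183 with the close libraries summed). Later, between days 1 and 2, Igfbp4 rose in Δ95–99 by 1.09 (adjusted p = 0.0421), a call lost without any of 4 libraries (adjusted p between 0.11 and 0.13). Over the 6 lines, the mean change to day 1 was -1.66 (SD 0.84, n = 6 lines, adjusted p = 0.00506).

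After day 0, Igfbp4 was higher than wildtype in S54F (2.07 on day 1 and 2.21 on day 2) and in +EMD (2.40 and 2.16). On day 2, the libraries of S54F (49.7, 58.1, and 61.4) and +EMD (51.5, 52.3, and 59.3) lay above the wildtype libraries (7.88, 9.45, and 24.3). In EMD-/y on day 2 (23.4, 54.7, and 59.0), the lowest library fell within the wildtype range, and the difference of 1.79 (adjusted p = 0.00475) was not called with the close libraries summed (adjusted p = 0.139). Q133H was lower on day 0, with libraries at 15.5, 16.7, and 18.1 (-1.96, SE 0.39, adjusted p = 0.000113). The day 0 difference of +EMD (1.05) was 0.43 (adjusted p = 0.216) without the wildtype library at 27.3, which stood well under the other two.

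The adaptors differed from each other. Irs1 was called in 0 of 49 comparisons by limma, with differences between -0.57 and 0.90, of which 15 passed an adjusted p of 0.05 and 19 an unadjusted one. Its wildtype libraries went from 120, 120, and 121 RPM on day 0 to 59.8, 61.3, and 64.3 on day 2, and on day 2 every library of the other 5 lines lay above wildtype, from 86.6 upward. The day 2 differences were 0.90 in Q133H, 0.74 in +EMD, 0.70 in Δ95–99, 0.67 in S54F, and 0.53 in EMD-/y, with adjusted p between 4.02e-07 and 0.00607, each under 2-fold. In Q133H the difference was 1.06 (adjusted p = 2.91e-08) without the library that stood apart and 1.13 with total reads as the scaling.

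Irs2, the adaptor induced when FoxO factors are active, was higher than wildtype in all 5 lines on day 2. Wildtype held 1.94, 2.09, and 2.63 RPM, from 31 reads upward. Next came S54F with 4.33, 5.75, and 6.12, then EMD-/y with 5.61, 6.48, and 7.68, whose ranges overlap. Δ95–99 held 8.72, 9.31, and 9.91, +EMD 11.6, 11.7, and 11.8, and Q133H 15.6, 17.2, and 19.6. No library of these 3 lines overlapped another line's. The differences from wildtype were 1.27 (SE 0.30, adjusted p = 0.00135) in S54F, 1.56 (SE 0.30, adjusted p = 0.000133) in EMD-/y, 2.06 (SE 0.28, adjusted p = 6.04e-08) in Δ95–99, 2.40 (SE 0.28, adjusted p = 2.56e-09) in +EMD, and 2.96 (SE 0.27, adjusted p = 2.07e-12) in Q133H. All 5 were called without each library in turn and with the close libraries summed, and the S54F difference was 0.99 on a log2 scale with a pseudocount of 1.

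Irs2 fell in wildtype from 10.8, 12.4, and 13.1 RPM on day 0 to 4.53, 6.14, and 6.20 on day 1, by 1.11 (SE 0.19, adjusted p = 5.73e-06). It fell again to day 2 by 1.32 (SE 0.30, adjusted p = 0.000226). To day 1 it also fell in EMD-/y (-1.11) and +EMD (-1.22), the wildtype and EMD-/y falls being under 2-fold without 1 library each (-0.96 without the wildtype library at 4.53, -0.90 without the EMD-/y library at 26.9). Q133H stayed between 14.9 and 19.6 in all 9 libraries, with changes of -0.15 (adjusted p = 0.41) and 0.09 (adjusted p = 0.63). On day 1, Irs2 was higher than wildtype in Δ95–99 (1.23), Q133H (1.55), and +EMD (1.35), and on day 0 in +EMD (1.46, SE 0.14, adjusted p = 2.6e-11), whose libraries at 29.7, 33.5, and 36.5 were above all others of that day.

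The 250 bases before the start of Irs2 (chr8:11008930-11009179, minus strand, GRCm38.p6, RefSeq) and of Igf1 (chr10:87860861-87861110, plus strand) and Igfbp5 (chr1:72874866-72875115, minus strand) are shown because the first was the member that differed in most lines on day 2 and the other two moved together over the groups. For Igf1, the start is one in RefSeq that lies inside the annotated gene (chr10:87858265-87937047), so its window is within the gene. E-boxes are in capitals.
Irs2: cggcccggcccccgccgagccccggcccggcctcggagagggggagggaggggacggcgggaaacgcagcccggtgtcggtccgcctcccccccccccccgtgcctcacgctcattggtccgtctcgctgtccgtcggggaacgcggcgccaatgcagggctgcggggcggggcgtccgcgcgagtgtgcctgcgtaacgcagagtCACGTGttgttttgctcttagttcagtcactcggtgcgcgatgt
Igf1: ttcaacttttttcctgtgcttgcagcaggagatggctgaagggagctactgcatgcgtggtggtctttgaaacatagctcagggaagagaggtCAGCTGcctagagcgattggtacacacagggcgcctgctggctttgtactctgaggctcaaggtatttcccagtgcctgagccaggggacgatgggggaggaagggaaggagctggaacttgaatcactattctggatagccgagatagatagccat
Igfbp5: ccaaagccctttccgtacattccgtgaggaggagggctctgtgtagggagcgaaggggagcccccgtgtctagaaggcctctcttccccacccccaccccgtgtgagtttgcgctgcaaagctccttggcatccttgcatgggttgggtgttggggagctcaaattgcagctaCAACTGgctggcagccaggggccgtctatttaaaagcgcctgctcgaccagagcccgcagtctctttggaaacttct
Each held 1 E-box, as CACGTG in Irs2 at -44, CAGCTG in Igf1 at -157, and a different form in Igfbp5 at -77. At least 1 E-box stood in 66% of the 27025 promoters, CACGTG in 6.05%, and CAGCTG in 12.8%. The forkhead motif TGTTTAC, searched on both strands, stood in none of the members' windows and in 3.09% of all promoters.

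The comparison with +EMD asks how the EMD-/y and mutant lines differ from EMD-/y cells that received wildtype emerin. Of 108 member comparisons, 27 were called (25%, against an average of 13% of all genes), and all 27 were lower in the line than in +EMD. Without the fold threshold, 54 passed the adjusted p by limma, 11 of them higher in the line. With the close libraries summed, 22 of the 27 were called, beside 4.51% to 26.2% of all genes in a comparison. All 4 lines share the same +EMD libraries, and EMD-/y alone among them was not transduced. By limma, 2 of 9 members in S54F on day 1 and 5 of 9 in EMD-/y on day 2 passed an adjusted p of 0.05. These differences were under 2-fold, so no member was called there. On day 0, Q133H had 4 calls of 9 (15.3% of all genes), Δ95–99 2 (7.46%), S54F 3 (8.83%), and EMD-/y 1 (11%). On day 1, Q133H had 5 (18.4%), Δ95–99 4 (9.08%), S54F 0 (7.56%), and EMD-/y 1 (14.5%). On day 2, Q133H had 3 (29.3%), Δ95–99 2 (11.5%), S54F 2 (11.1%), and EMD-/y 0 (12.5%).

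**Figure D3:**
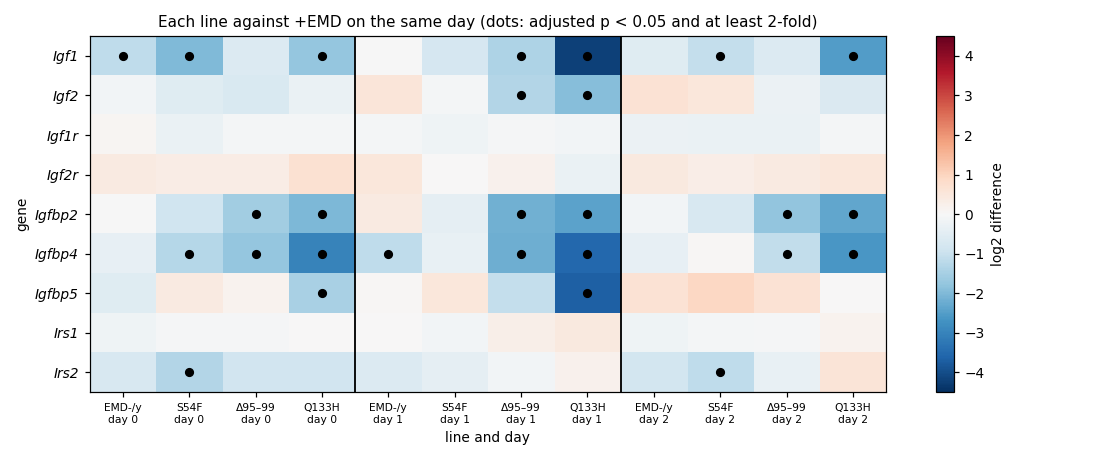
Log2 difference of EMD-/y and the 3 mutant lines from +EMD on the same day for the 9 members, with a dot where the adjusted p was under 0.05 and the difference at least 2-fold. All dots lie in blue cells, 12 of them in Q133H, and Igf1r, Igf2r, and Irs1 have none.

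Q133H held 12 of the 27, in Igf1, Igfbp2, and Igfbp4 on all 3 days, and in Igfbp5 on days 0 and 1 and Igf2 on day 1. The day 0 call of Igfbp5 (-1.45) was lost without the Q133H library at 89.0 (adjusted p = 0.0729) and with the close libraries summed (adjusted p = 0.114). Igf1 was lower in Q133H than in +EMD by -1.74, -4.21, and -2.52 (SE 0.30, 0.43, and 0.22), Igfbp2 by -2.01, -2.42, and -2.35, and Igfbp4 by -3.00, -3.55, and -2.61. On day 2 without the library that stood apart, these differences were -2.98 for Igf1, -2.58 for Igfbp2, and -2.94 for Igfbp4 (adjusted p = 4.8e-05), and Igf2 was lower as well (-1.15, adjusted p = 3.09e-05). Δ95–99 held 8, in Igfbp2 and Igfbp4 on all 3 days and in Igf1 and Igf2 on day 1, among which Igfbp4 on day 2 (-1.11) was lost without either of 2 libraries and with the close libraries summed (adjusted p = 0.126), as was Igfbp2 on day 0 when they were summed (-1.57, adjusted p = 0.0527). In S54F, Igf1 was lower on day 0 (-1.97) and day 2 (-1.08), Irs2 on day 0 (-1.33) and day 2 (-1.13, and -0.98 without the S54F library at 4.33), and Igfbp4 on day 0 (-1.29, adjusted p = 0.0716 with the close libraries summed). EMD-/y was lower than +EMD in Igf1 on day 0 (-1.14, SE 0.27, adjusted p = 0.00107) and in Igfbp4 on day 1 (-1.15, adjusted p = 0.0103), the latter lost without the +EMD library at 90.5 (-0.78, adjusted p = 0.11) or the EMD-/y library at 19.9 (adjusted p = 0.0523). On day 1, 10 of 15 myogenic markers were lower than in +EMD in Δ95–99 and 14 in Q133H, and their part was not tested.

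Whether a line's change between days differed from that of wildtype was tested as the difference of the changes, all against the same wildtype libraries. In total, 18 of 90 were called (20%, against an average of 7.27% of all genes). Between days 0 and 1, Q133H had 5 calls of 9 (16.6% of all genes), Δ95–99 4 (10.2%), +EMD 1 (7.52%), S54F 1 (4.92%), and EMD-/y 0 (0.244%). Between days 1 and 2, Q133H had 3 (13.9%), Δ95–99 2 (9.84%), +EMD 2 (7.75%), S54F 0 (1.59%), and EMD-/y 0 (0.17%). Where EMD-/y had no call, 0 of 9 members passed an unadjusted p of 0.05 by limma in the first interval and 2 in the second, and in S54F 2 did so in the second. An adjusted p of 0.05 was passed by 0 of 9 in EMD-/y in either interval and by 1 in S54F in the second. With the close libraries summed, 6 of the 18 were still called, beside 0.02% to 11.2% of all genes in a comparison.

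**Figure D4:**
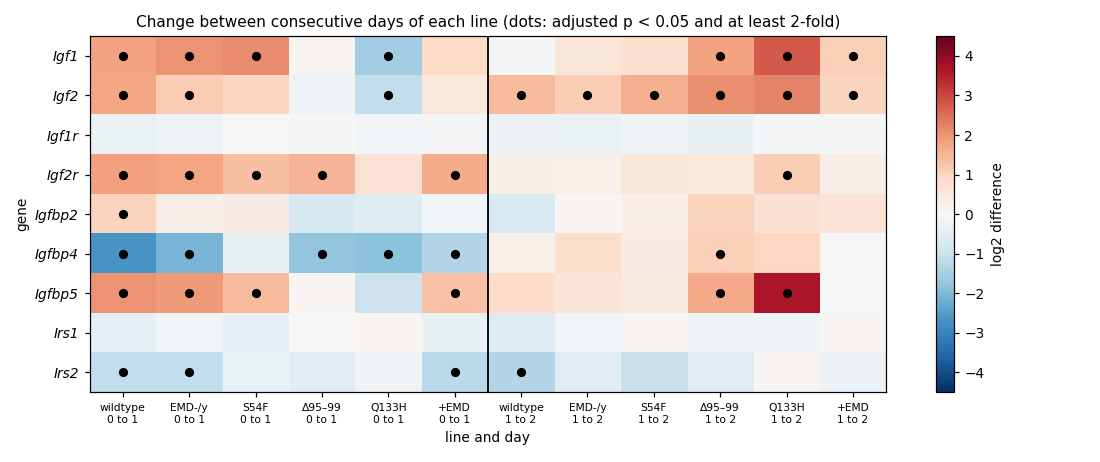
Log2 change between consecutive days for the 9 members in each of the 6 lines, with a dot where the adjusted p was under 0.05 and the change at least 2-fold. Igf2 carries a red dot in every line from day 1 to day 2, and Igf2r in 5 of 6 lines from day 0 to day 1.

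**Figure D5:**
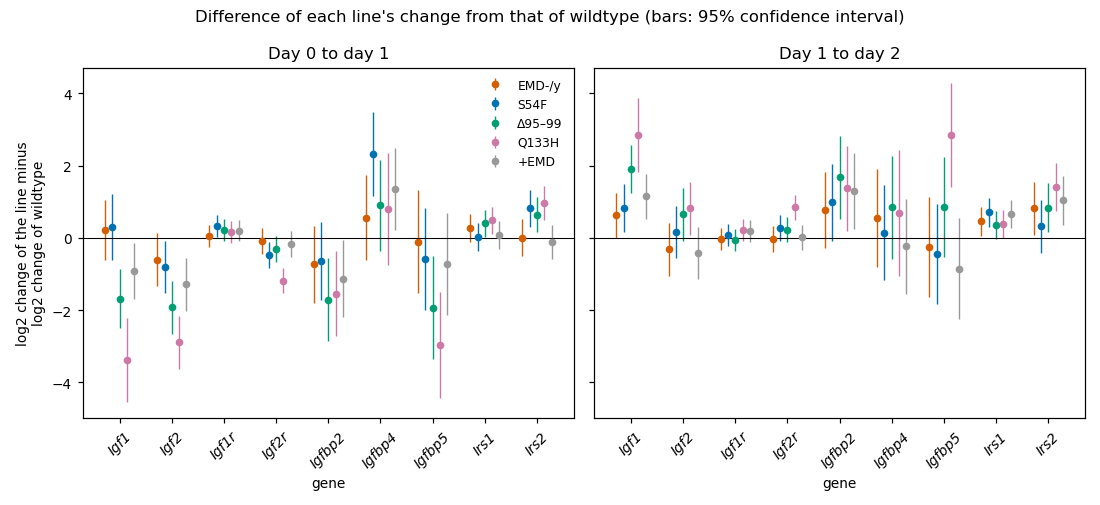
Log2 change of each line minus the log2 change of wildtype for the 9 members, from day 0 to day 1 (left) and from day 1 to day 2 (right), with bars for the 95% confidence interval. Q133H and Δ95–99 lie under 0 for Igf1 and Igf2 on the left and over 0 for Igf1 on the right.

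From day 0 to day 1, the ligand changes were smaller or of the other sign than in wildtype in Δ95–99 (Igf1 -1.68, Igf2 -1.92) and Q133H (Igf1 -3.39, Igf2 -2.89, SE 0.57 and 0.36). Igf2 also differed in +EMD (-1.28, SE 0.36, adjusted p = 0.00743). Of these, both Q133H values were called with the close libraries summed (adjusted p = 0.00365 and 0.000976), and the Δ95–99 and +EMD values were not (adjusted p between 0.0505 and 0.214). From day 1 to day 2, Igf1 rose more than in wildtype in Q133H (2.84), Δ95–99 (1.89), and +EMD (1.15, and 0.97 without the +EMD day 1 library at 34.2), and Irs2 differed in Q133H (1.41, SE 0.33, adjusted p = 0.00064). Without the Q133H day 2 library that stood apart, the Q133H differences were 2.39 for Igf1 and 1.49 for Irs2. Igfbp5 differed in Q133H in both intervals (-2.96 and 2.85, adjusted p = 0.0657 and 0.0628 with the close libraries summed). The differences of Igfbp2 in Δ95–99 (-1.72 and 1.67) and Q133H (-1.54) and of Igfbp5 in Δ95–99 (-1.93) were each lost without any of at least 5 libraries, as was Irs2 in +EMD (1.05). From day 0 to day 1, 9 of 15 myogenic markers in Δ95–99 and 12 in Q133H were also called lower by this test, and their part was not tested. For changes averaged over the 6 lines, 13.1% of all genes were called from day 0 to day 1 and 14.6% from day 1 to day 2, beside 5 of 18 for the members.

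Over the 18 group means, log2 levels of Igf1 and Igf2 correlated at Pearson r = 0.815, Igf1 and Igfbp5 at 0.852, Igf2 and Igfbp5 at 0.814, and Irs2 and Igf1r at 0.867. Igf2 and Irs1 correlated at -0.736. These are descriptions over groups that share lines and days. On the log2 scale used here, the lowest group mean of Igf1, Igf2, and Igfbp5 was that of Q133H on day 1. In mean RPM, Igfbp5 was lowest in wildtype on day 0 (90.65) and next in Q133H on day 1 (112.8). The named genes whose pattern over the 18 group means was most like Igf2 were Rragd (r = 0.977), a Rag GTPase of the mTOR pathway, Klhl41 (0.961), and Des (0.959), the muscle intermediate filament protein desmin. For Igf1 they were Ecm2 (0.949), Cgnl1 (0.942), and Ank1 (0.940), and for Igfbp5 Parm1 (0.905), Mymx (0.892), a fusion peptide of myoblasts, and Pdlim3 (0.886). The mean of Ecm2 was only 0.127 to 2.68 RPM.

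Genes around the axis were taken from lists. Of the 23 tested genes from the receptor to Akt, 27 of 345 gene comparisons with wildtype were called (13 higher and 14 lower, 7.83%), beside the 15.6% average of all genes, and the medians lay between -0.16 and 0.07. The 16 genes of mTOR and its outputs gave 20 of 240 (8.33%). In the list of 13 tested further binding proteins, proteases, and RNA-binding proteins, 87 of 195 were called (44.6%, 42 higher and 45 lower), and in the 9 tested imprinted growth genes, 70 of 135 (51.9%, 50 higher and 20 lower). The list medians ranged from -0.95 to 0.75 and from -1.43 to 2.21. Against wildtype, the 14 FoxO factors and muscle FoxO targets had 14 higher and 23 lower calls in 210 gene comparisons (17.6%), near the 15.6% average. Between days, this FoxO list had 52 of 168 calls (31%), 45 of them rises, beside the 17.1% average of all genes. The list from the receptor to Akt had 21 of 276 between days (7.61%).

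Among the genes named by rule, Deptor, an inhibitor of mTOR, was higher than wildtype in all 5 lines on day 0, by 2.45 to 2.88. The wildtype libraries held 22.9, 23.5, and 24.4 RPM, and every library of the other lines was at 117 or above. On day 2, Deptor was higher in EMD-/y (1.24), S54F (1.26), and +EMD (1.95) and was not called in Δ95–99 (0.52) or Q133H (-0.37). Igfbp3, the main IGF carrier in serum, was also higher in all 5 lines on day 0, by 2.59 to 3.56. Pappa2, a protease that cleaves IGF-binding proteins, rose from day 1 to day 2 in all 6 lines, by 1.74 to 4.11, and was lower than wildtype on day 2 in Δ95–99 (1.96, 1.96, and 2.23 RPM against 23.5, 28.1, and 29.0, -3.69) and Q133H (0.201, 0.303, and 0.369, -6.44). Its rise in Q133H started from 0, 0, and 0.0457 RPM and was not called with the close libraries summed (adjusted p = 0.0571).

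Igf2bp3, an RNA-binding protein that binds Igf2 mRNA, was called in all 5 lines on all 3 days but in both directions. It was higher in EMD-/y, S54F, and Q133H, by 1.32 to 2.31, and lower in Δ95–99 and +EMD, by -1.11 to -2.65, the smallest of these, Δ95–99 on day 2, being -0.84 or -0.98 without either of 2 libraries. In the imprinted list, Plagl1, a zinc-finger factor of the imprinted growth network, was higher than wildtype in all 5 lines on day 2, by 1.18 in Q133H to 3.09 in +EMD, with wildtype at 32.0, 32.8, and 39.2 RPM and every other library at 59.4 or above. Mest was higher in all 5 on day 2 as well, by 1.47 to 3.29. On day 1, it was higher in 4 lines, with that of EMD-/y lost when the close libraries were summed (adjusted p = 0.279), and lower in Q133H (-1.43, adjusted p = 0.00491, and 0.115 with the close libraries summed). Dlk1 was called in all 5 lines on day 1, higher in EMD-/y (3.36) and S54F (1.79) and lower in the others (-1.44 to -3.11), of which Δ95–99 and Q133H were lost with the close libraries summed (adjusted p = 0.0814 and 0.19). Dcn, which is also a fibroblast marker, was lower in all 5 lines on day 0, by -1.23 in EMD-/y (adjusted p = 0.176 with the close libraries summed) to -3.39 in +EMD.

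In the FoxO list, Foxo3 rose from day 0 to day 1 in all 6 lines, by 1.03 in Q133H to 2.12 in wildtype, the Q133H rise being 0.96 or 0.91 without either of 2 libraries. Bnip3, a mitophagy gene, rose by 1.63 to 2.42 in all 6. From day 1 to day 2, Foxo6 (1.16 to 2.58), the ubiquitin ligase Trim63 (1.19 to 4.29), and Fbxo40 (1.05 to 2.22), a ubiquitin ligase component that targets IRS-1, rose in all 6 lines, of which the 6 rises of Fbxo40 were all lost with the close libraries summed. The myogenic markers Des, Mymk, Myh3, Ckm, Acta1, Tnnt3, Actc1, and Casq2 also rose in all 6 lines over this interval, and their part in these changes was not tested. Of the marker lists of other cells, Pparg and Csf1r fell and Tek rose in all 6 lines from day 0 to day 1, and Itgam rose in all 6 from day 1 to day 2, with levels of at most 6.60 (Pparg), 1.38 (Csf1r), 1.92 (Tek), and 17.4 (Itgam) RPM in any library. Pax7, a marker of muscle stem cells, was called in all 5 lines on all 3 days, in both directions, by -7.18 to 4.21.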

How the data were processed

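The deposited tables gave, for each gene, a length and 1 expression value for each group compared, a signal that the authors made from reads divided by size factors. Per the labels and methods, the authors filtered 100-base paired reads with SOAPnuke, aligned them with HISAT2 to mm10, and compared groups with DESeq2. The tool that counted reads and its use of strand are not given in the sources used here. The authors' log2 fold changes, p-values, adjusted p-values, and direction calls were not used. The ratio of the 2 expression values of a table equals the authors' moderated fold change, so these values are not plain group means. Their sum is 2 times the mean over the 6 libraries, and the sums across the 27 tables gave back whole reads for 19653 of 19653 genes in 54 libraries, within a relative tolerance of 2e-14. The same step recovered 19653 of 19653 genes of simulated reads. That simulation used the size factors found in these data and started from values near its own group means. The real recovery started from the deposited values, so the simulation is no independent check of it. This differs from the planned use of group values as deposited. Column names gave the group but no replicate number, and 0 further columns of single samples were present.

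Genes with at least 10 reads in 3 or more libraries (14727) were fitted with limma 3.58.1 (voom, R 4.3.3) in 1 model of all 18 groups, with median-ratio scaling and Benjamini-Hochberg adjustment over all genes. Changes over the 6 lines were tested with limma on log2 mean reads divided by size factors, with a pseudocount of 1 read. Genes tested there had a mean of at least 10 such reads in a group. The fits were tested on simulated data. The members, gene lists, and alternatives were chosen with earlier results of these data known. Genes named beyond the members were list genes called in all 5 lines on a day or in all 6 lines in an interval, and the 3 named genes most like Igf2, Igf1, and Igfbp5. A planned limit of 5 genes per list was not applied to the myogenic markers. Summing the 2 closest libraries of a group was added after seeing the data. Motifs were searched in RefSeq promoters of GRCm38.p6, and H19 was not analysed here.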

Additional observations from a re-analysis of the deposited data

Results flagged for a closer look

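Flagged are the member differences between a line's change over an interval and that of wildtype that passed both thresholds in the test of the difference itself (limma, Benjamini-Hochberg adjusted p under 0.05). All 18 use the same wildtype libraries. From day 0 to day 1, Igf1 differed in Δ95–99 (-1.68) and Q133H (-3.39), and Igf2 in Δ95–99 (-1.92), Q133H (-2.89), and +EMD (-1.28). Over the same interval, Igf2r differed in Q133H (-1.18), Igfbp2 in Δ95–99 (-1.72) and Q133H (-1.54), Igfbp4 in S54F (2.32), and Igfbp5 in Δ95–99 (-1.93) and Q133H (-2.96). From day 1 to day 2, Igf1 differed in Δ95–99 (1.89), Q133H (2.84), and +EMD (1.15). In that interval, Igfbp2 differed in Δ95–99 (1.67), Igfbp5 in Q133H (2.85), and Irs2 in Q133H (1.41) and +EMD (1.05). With the close libraries summed, the differences called were Igf1 in Δ95–99 from day 1 to day 2 and in Q133H in both intervals, Igf2 and Igf2r in Q133H from day 0 to day 1, and Irs2 in Q133H from day 1 to day 2.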

How the results depend on the processing

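Without the fold threshold, the member calls by adjusted p alone were 67 of 135 against wildtype (56 higher) and 60 of 108 between days (36 higher). They were 54 of 108 against +EMD (11 higher) and 10 of 18 over lines (6 higher). The share of all genes without that threshold is not given here, so these counts cannot be set against it. With the 2 closest libraries of each group summed, an alternative chosen after seeing the data, 6 of 90 differences of changes were called. Of all genes, 0.02% to 11.2% were called in these comparisons. Leaving out 1 line at a time, the calls over lines ranged from 3 to 5. No called value changed direction under the alternatives run. Values near 0 that were not called did, among them Igfbp5 in Q133H against wildtype on day 2 (0.40, and -0.01 without the library that stood apart) and, with the close libraries summed, Igf2 in Δ95–99 from day 0 to day 1 (-0.16 to 0.04) and in +EMD against wildtype on day 1 (-0.06 to 0.03). Of the calls, 34 of 44 against wildtype, 28 of 39 between days, 23 of 27 against +EMD, and 12 of 18 differences of changes were called without each library in turn. Total reads as the scaling moved the median of all genes by over 0.1 in 12 of 49 comparisons (-0.308 to 0.239), and 8 member calls were lost and 7 gained. No paired analysis was possible because the recovered libraries carry no replicate number. Igf1 in Q133H on day 1 (from 38 reads) and Irs2 in wildtype on day 2 (from 31 reads) rest on the fewest reads of their genes.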
